A study of Mus musculus with 12 samples.

Results

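Adipogenic and lipid storage genes were followed through fibroblasts treated with a mineralocorticoid receptor (MR) agonist or antagonist. The 10 genes, Pparg, Cebpa, Cebpb, Fabp4, Lpl, Cd36, Plin2, Plin4, Adipoq and Lipe, were taken by their symbol, and all 10 were found among the 28995 genes in the deposited tables. The cells were primary fibroblasts from hindlimb muscle of 3-day-old C57BL/10 wild-type mice. They were enriched by adherence, grown to passage 2 and kept for a day before treatment in medium with charcoal-stripped serum, which removes steroids, so all groups share that medium. They were then treated for 48 hours with aldosterone at 1 µM, the agonist, spironolactone at 1 µM, the antagonist, or DMSO as vehicle, with 4 bulk poly(A) RNA libraries per treatment. Both compounds are steroids, and spironolactone carries a spirolactone ring where aldosterone has its side chain.

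Cells came from 2 mice, each plated in duplicate for every treatment, so the 4 libraries of a group were not 4 animals. In fits without a block, p-values measure the spread between plates and mice together. A library is named by a sample number and by a biological replicate number, either of them 1 or 2, and whether the first or the second stands for the mouse is not given. Where the sample number is a block, p-values leave out the spread between sample numbers. If that number stands for the mouse, they leave out the spread between mice. The medium as described held no adipogenic mixture, and lipid content was not analysed here. Libraries held between 19136923 and 30219185 reads on genes, with a median of 23833379. Fibroblast and fibro-adipogenic progenitor markers were abundant in all 12 libraries (summed level of 10 markers 6444 to 7359 FPKM, reads on a gene scaled to its length in kilobases and to the reads of the library). The markers of mature adipocytes summed to between 1.96 and 9.11 FPKM over 8 genes. Lep, the gene of leptin, had at most 1 read in any library and no read with vehicle or spironolactone. In bulk RNA, fewer cells of a type and less RNA per cell cannot be told apart.

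Fat cells arise from mesenchymal precursors, among them the fibro-adipogenic progenitors of muscle, when C/EBPβ and C/EBPδ come on first and then induce PPARγ and C/EBPα, which drive the genes of the mature cell. These genes serve the uptake of fatty acids (Lpl, Cd36), their carriage in the cytosol (Fabp4), the coat of the lipid droplet (perilipins such as Plin2 and Plin4), the release of stored fat (Lipe) and hormones such as adiponectin (Adipoq). Steroid hormones acting at glucocorticoid and mineralocorticoid receptors are known to favour fat cell differentiation of cultured preadipocytes.

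To show the DNA in front of genes that the results turn on, the 250 bases before the start site are printed for Plin4 and Cebpb, which were higher with aldosterone than with vehicle, and for Adipoq, which was not called. They are from RefSeq, build GRCm38.p6, at chr17:56109783-56110032 on the minus strand, chr2:167688665-167688914 on the plus strand and chr16:23146286-23146535 on the plus strand, with letters in capitals where a searched motif lies.
Plin4: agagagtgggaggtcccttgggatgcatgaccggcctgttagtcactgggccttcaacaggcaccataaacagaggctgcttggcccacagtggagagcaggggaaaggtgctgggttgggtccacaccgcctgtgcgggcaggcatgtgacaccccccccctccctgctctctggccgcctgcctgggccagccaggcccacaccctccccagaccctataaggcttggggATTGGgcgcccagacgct
Cebpb: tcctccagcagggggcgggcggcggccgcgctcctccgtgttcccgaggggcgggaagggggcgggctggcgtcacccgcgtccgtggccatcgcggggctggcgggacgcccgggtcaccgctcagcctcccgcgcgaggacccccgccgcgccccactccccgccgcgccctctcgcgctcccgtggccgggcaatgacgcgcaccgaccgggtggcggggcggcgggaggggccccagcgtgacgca
Adipoq: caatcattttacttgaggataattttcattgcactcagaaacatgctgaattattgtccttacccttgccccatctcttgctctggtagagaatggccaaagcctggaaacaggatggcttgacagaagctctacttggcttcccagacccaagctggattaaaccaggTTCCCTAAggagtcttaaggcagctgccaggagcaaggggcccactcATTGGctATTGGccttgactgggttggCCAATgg
The motifs, searched on both strands, were the steroid receptor palindrome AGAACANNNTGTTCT, its hexamer AGAACA, the PPAR direct repeat AGGTCANAGGTCA, its hexamer AGGTCA, a C/EBP site TTNCNNAA, the CCAAT box CCAAT and the TATA box TATAAA, and each hexamer lies inside the longer motif built from it. Among 32851 promoter windows of this length, 0.00913% held the palindrome, 16.1% AGAACA, 0.0335% the direct repeat, 14.0% AGGTCA, 36.8% the C/EBP site, 33.8% CCAAT and 12.4% TATAAA. The Plin4 window held 1 match, to the CCAAT box, from base -18 to base -14 counted from the start site. The Adipoq window held 1 match to the C/EBP site, from base -81 to base -74, and 3 to the CCAAT box, while the Cebpb window held none. Windows were at hand for 8 of the 10 genes (11 windows, since Pparg has 3 start sites and Lipe 2), and neither AGAACA nor the direct repeat was in any of the 11. Fabp4 and Lpl had no window, so the bases before their start sites were not searched. These matches describe the letters of these windows alone.

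In vehicle-treated fibroblasts, Cebpb, Cebpa and Plin2 stood above the other 7 genes, Pparg among them. Cebpb had the highest level of the 10 (51.0 ± 3.42 FPKM, SD, n = 4), followed by Cebpa at 19.0, Plin2 at 14.5, Plin4 at 4.18, Lpl at 3.44, Pparg at 3.36, Fabp4 at 1.43, Lipe at 1.06, Adipoq at 1.04 and Cd36 at 0.318 FPKM. In this order Cebpa and Plin2 overlapped between libraries, as did Plin4 with Lpl, Lpl with Pparg, Lipe with Adipoq and Adipoq with Cd36, while the other neighbours were apart in all 4 libraries. FPKM uses the gene length as deposited, which for Fabp4 is its whole span of 4489 bases with introns, so its level per length of transcript is understated. Relative to all 28995 genes, 97.2% had a lower level than Cebpb and 48.1% a lower level than Cd36.

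**Figure D1:**
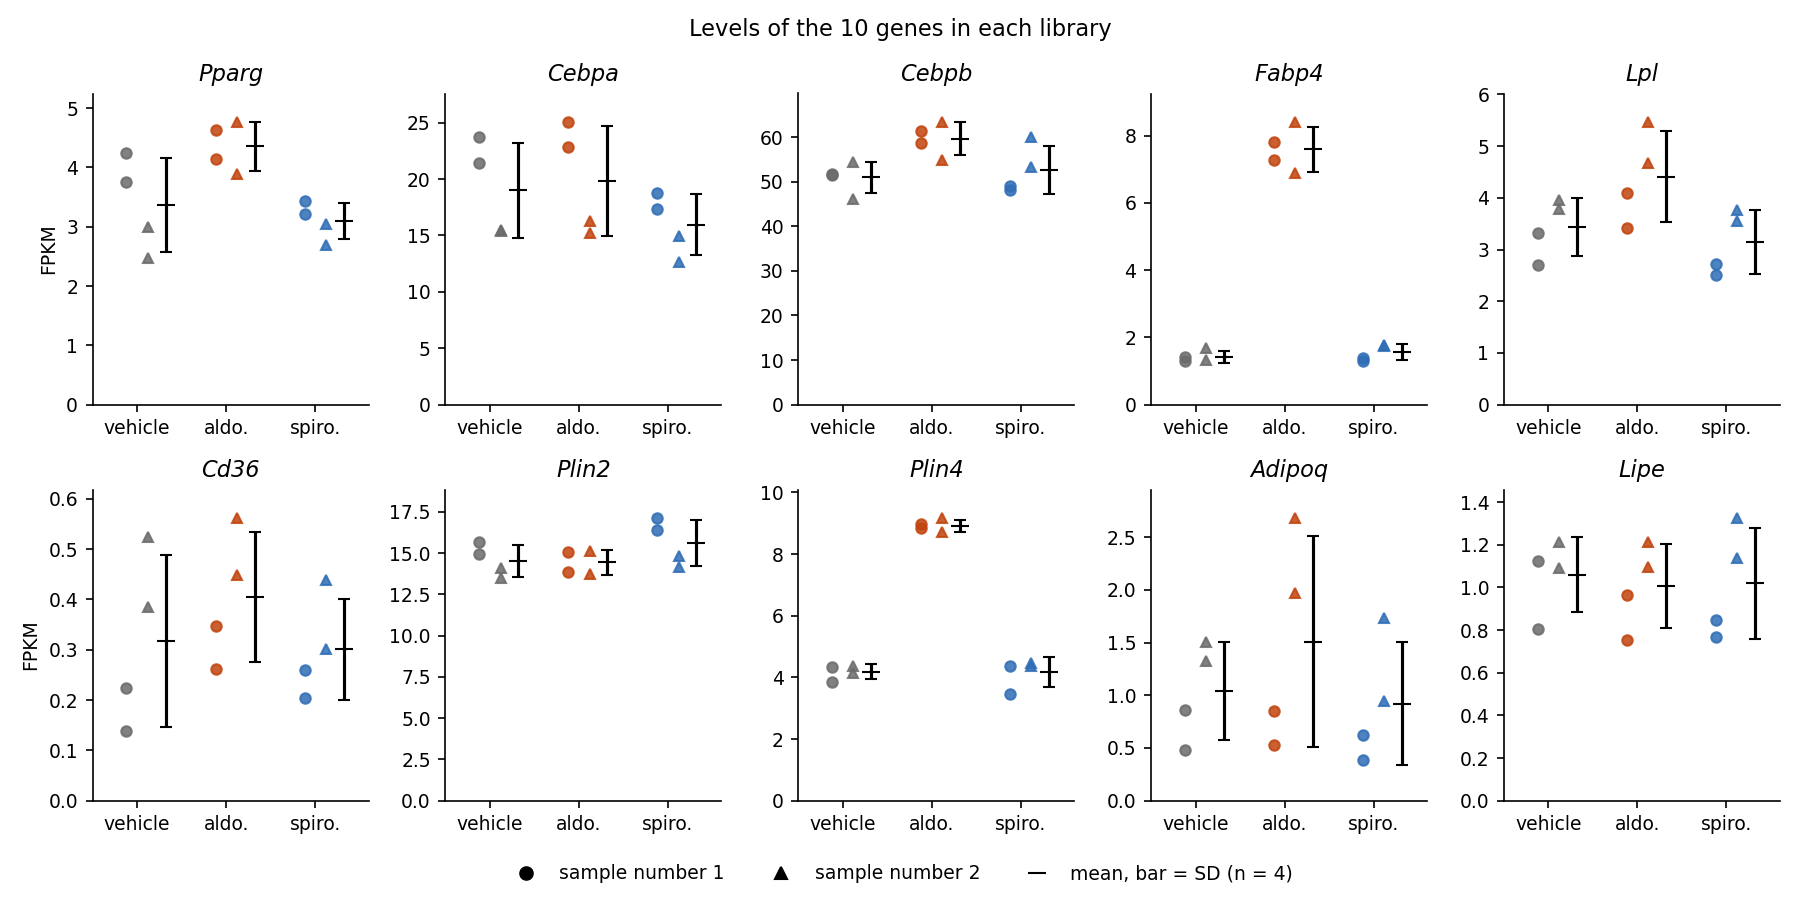
Level of each gene in FPKM on the y axis (linear, from 0) for every library by treatment, with circles for sample number 1, triangles for sample number 2, and the mean with its SD (n = 4) beside them. Fabp4 and Plin4 are higher in all 4 aldosterone libraries than in the others, while Adipoq and Cebpa separate by sample number.

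To ask which of these genes responded to aldosterone, the 4 aldosterone libraries were compared with the 4 vehicle libraries with limma on log2(normalized count + 1), a scale that understates changes of low genes. Fabp4 rose 5.48-fold and Plin4 2.2-fold, Cebpb rose slightly, and Cebpa, Plin2, Lipe, Adipoq and Cd36 were not called. With both thresholds (adjusted p of at most 0.05 and a log2 fold change of at least 1), 2 of the 10 genes were called higher and 0 lower, against 1.40% of the 27319 genes tested called higher and 0.666% lower. With the adjusted p alone, limma called 3 of the 10 higher and 0 lower (background 5.68% and 4.74%). At an unadjusted p under 0.05, each tool had 5 of the 10 higher and 0 lower, where the share of all genes it tested was 10.6% higher and 10.3% lower in limma, 16.4% and 15.5% in edgeR and 9.34% and 8.83% in DESeq2. All 10 genes averaged 10 or more normalized counts, and of the 15245 genes that did so limma's adjusted p called 9.65% higher and 8.09% lower. The 10 genes had a median log2 fold change of 0.41, where that of all genes was -0.01. Every aldosterone library stood above every vehicle library for 3 of the 10 genes, as it did for 7.55% of all genes. The 10 genes were chosen with earlier results of these data known, so their counts beside those shares are no independent support, here or against spironolactone.

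Among the regulators, Cebpb (ENSMUSG00000056501, chromosome 2, 167530835 to 167532338), the C/EBP factor that acts early in fat cell differentiation, had normalized counts of 1873, 1829, 1623 and 1905 in the vehicle libraries and 2183, 2278, 2288 and 1961 in the aldosterone libraries, each time with those of sample number 1 first. The aldosterone libraries lay above all vehicle libraries, the closest pair being 1961 and 1905. The log2 fold change was 0.27 (SE 0.067, adjusted p = 0.0149, two-sided exact permutation p = 0.0286, the smallest that 4 against 4 libraries can give). When 1 library was left out, the call was lost for 7 of the 8 libraries, with adjusted p between 0.059 and 0.118, and held only without the aldosterone library of sample number 2, replicate 2 (adjusted p = 0.0238). Peds1, on the opposite strand, shares 908 of the 1504 bases of Cebpb and had a log2 fold change of 0.06 (SE 0.060, adjusted p = 0.647). The sources used here do not say whether counting used the strand, so how reads in the shared bases were assigned is not known.

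Pparg (ENSMUSG00000000440, chromosome 6, 115337912 to 115467360), the nuclear receptor at the centre of the fat cell programme, had 301, 262, 206 and 170 normalized counts with vehicle and 338, 302, 275 and 334 with aldosterone. The groups overlapped through a single vehicle library of sample number 1. Its log2 fold change was 0.44 (SE 0.15, 95% interval 0.13 to 0.75, adjusted p = 0.0697), which passed only with the sample number as a block (adjusted p = 0.0024). The difference was 0.19 in sample number 1 and 0.69 in sample number 2, and the difference between these had an unadjusted p of 0.0219 and an adjusted p of 0.895 in limma's interaction term over all genes. Cebpa (ENSMUSG00000034957, chromosome 7, 34818718 to 34821353), which sustains the differentiated state, had 1503, 1333, 953 and 948 with vehicle against 1487, 1631, 1028 and 950 with aldosterone. The 2 groups covered nearly the same range, with a log2 fold change of 0.10 (SE 0.17, 95% interval -0.26 to 0.45, adjusted p = 0.802).

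Fabp4 (ENSMUSG00000062515, chromosome 3, 10269148 to 10273636), the fatty acid carrier of adipocytes, showed the largest response of the 10 genes. Its normalized counts were 139, 151, 176 and 137 with vehicle and 867, 804, 741 and 896 with aldosterone. The lowest aldosterone library was thus more than 4 times the highest vehicle library, and the log2 fold change was 2.45 (SE 0.096, adjusted p = 5.09e-11). The value was 2.52 in sample number 1 and 2.38 in sample number 2. On the scale per length, Fabp4 went from 1.43 ± 0.18 to 7.59 ± 0.66 FPKM (SD, n = 4), with the length limit given above.

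Lpl (ENSMUSG00000015568, chromosome 8, 69333143 to 69360100), the secreted lipase that frees fatty acids from lipoproteins, had 835, 669, 926 and 965 normalized counts with vehicle and 884, 1057, 1375 and 1162 with aldosterone. The groups overlapped, but within each sample number both aldosterone libraries lay above both vehicle libraries. The log2 fold change was 0.39 (SE 0.12, 95% interval 0.13 to 0.66) with an adjusted p of 0.0525 in limma, 0.0535 in edgeR, 0.0212 in DESeq2, 0.0495 in limma with TMM scaling and 5.5e-05 with the sample number as a block. Cd36 (ENSMUSG00000002944, chromosome 5, 17986688 to 18093799), a membrane receptor for fatty acids, was low, with 19.3, 11.7, 43.9 and 32.2 against 23.3, 30.8, 38.7 and 47.9. These overlapped widely, and the interval of the log2 difference ran from -0.29 to 1.27 (adjusted p = 0.521), so a change as large as that of Plin4 would lie within it.

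Of the perilipins, Plin4 (ENSMUSG00000002831, chromosome 17, 56407591 to 56416803), a coat protein of small lipid droplets, had 589, 653, 649 and 611 normalized counts with vehicle and 1408, 1384, 1327 and 1382 with aldosterone. The 4 libraries of each group lay close together and far from the other group, and the log2 fold change was 1.14 (SE 0.061, adjusted p = 2.12e-09), with 1.17 in sample number 1 and 1.10 in sample number 2. Plin2 (ENSMUSG00000028494, chromosome 4, 86566623 to 86588297), the droplet coat protein found in most cell types, had 1260, 1302, 1154 and 1105 against 1201, 1306, 1155 and 1261. These groups overlapped over nearly their whole range, and the interval of the log2 difference, -0.11 to 0.17 (adjusted p = 0.844), lay below the values of Plin4.

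Lipe (ENSMUSG00000003123, chromosome 7, 25078952 to 25098135), hormone-sensitive lipase, had 114, 156, 150 and 166 normalized counts with vehicle and 110, 140, 171 and 153 with aldosterone, with a log2 difference of -0.04 (95% interval -0.36 to 0.29, adjusted p = 0.934). Its span lies within that of 4732471J01Rik, an RNA of the opposite strand with a mean of 25.2 reads. Adipoq (ENSMUSG00000022878, chromosome 16, 22965286 to 22976778), the hormone adiponectin, had 28.5, 15.6, 42.7 and 48.3 against 18.1, 28.9, 65.4 and 87.9. The aldosterone libraries of sample number 2 were the highest and those of sample number 1 lay among the vehicle libraries, and the log2 difference was 0.42 (95% interval -0.51 to 1.35, adjusted p = 0.665).

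**Figure D2:**
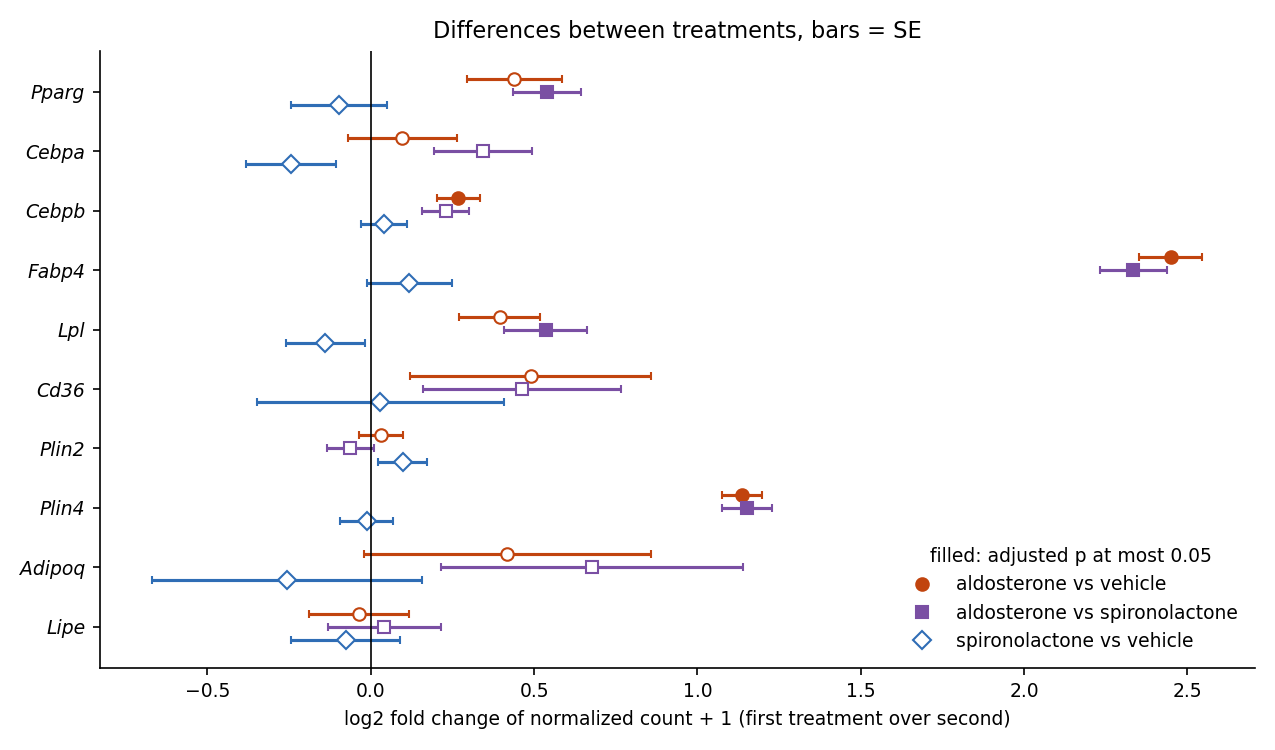
Log2 fold change of normalized count + 1 (x axis) of each gene in the 3 comparisons, with the SE as bars and filled symbols for an adjusted p of at most 0.05. Fabp4 lies near 2.4 and Plin4 near 1.1 in both comparisons with aldosterone, and no spironolactone to vehicle value is filled.

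To set the agonist against the antagonist at the same dose and time, the same 4 aldosterone libraries were compared with the 4 spironolactone libraries, so that the comparison shares its aldosterone libraries with the one above. With both thresholds 2 of the 10 genes were called higher, Fabp4 and Plin4 (background 1.38% of 27631 genes), and with the adjusted p alone 4 were higher and 0 lower (background 4.93% and 3.96%). Of genes averaging 10 or more normalized counts, as all 10 did, the adjusted p called 8.39% higher and 6.78% lower. At an unadjusted p under 0.05, 6 of the 10 were higher and 0 lower in limma (background 9.56% and 9.17%), 5 and 0 in edgeR (14.8% and 14.2%) and 5 and 0 in DESeq2 (8.40% and 7.77%). Fabp4 had 143, 153, 191 and 187 normalized counts with spironolactone and 762 to 920 with aldosterone, and Plin4 had 673, 537, 680 and 664 against 1363 to 1451. Neither pair overlapped, and the log2 fold changes were 2.33 (SE 0.10, adjusted p = 6.57e-11) and 1.15 (SE 0.076, adjusted p = 1.20e-08). Pparg was higher by 0.54 (SE 0.10, adjusted p = 0.00212), with 229, 248, 191 and 215 normalized counts against 349, 310, 283 and 343, and the groups did not overlap. Lpl was higher by 0.54 (SE 0.13, adjusted p = 0.0108) with overlapping groups, and the call was lost on leaving out any of 7 of the 8 libraries (adjusted p 0.0788 to 0.233), though not without the aldosterone library of sample number 1, replicate 1 (adjusted p = 0.034).

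Cebpb differed by 0.23 (SE 0.071, 95% interval 0.08 to 0.38, adjusted p = 0.0552) and Cebpa by 0.34 (SE 0.15, 95% interval 0.03 to 0.66, adjusted p = 0.215), and both passed with the sample number as a block (adjusted p = 0.00359 and 6.17e-05). Cebpb also passed in DESeq2 (adjusted p = 0.0346), in limma once genes averaging under 10 normalized counts were left out (adjusted p = 0.0488) and without the spironolactone library of sample number 2, replicate 1 (adjusted p = 0.0403). For the other 4 genes the intervals held 0: they were -0.17 to 1.10 for Cd36, -0.22 to 0.09 for Plin2, -0.30 to 1.65 for Adipoq and -0.32 to 0.40 for Lipe. These intervals bound the difference between the 2 steroids tightly for Plin2 and loosely for Adipoq and Cd36.

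Spironolactone alone was compared with vehicle to see whether the antagonist moved these genes by itself. In this comparison limma called 0 of the 10 genes higher and 0 lower, as it did 0% of the 27598 genes in either direction, and of all genes 701 were higher and 550 lower at an unadjusted p under 0.05. DESeq2 called 12 genes higher and 1 lower and edgeR 0, none of them among the 10. With the sample number as a block limma called 63 genes higher and 34 lower, including 1 of the 10, Cebpa, with 1175, 1101, 926 and 784 normalized counts with spironolactone against 1509, 1343, 960 and 954 with vehicle (log2 fold change -0.25, adjusted p = 0.934 without the block and 0.0456 with it). Every spironolactone library lay below both vehicle libraries of its own sample number. The intervals of the log2 difference were -0.16 to 0.39 for Fabp4 and -0.18 to 0.16 for Plin4, below the values that aldosterone gave.

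The wider fat cell pathway was followed in 9 lists holding 186 genes, of which 184 were in the aldosterone and vehicle table. These lists too were chosen with earlier results known, so counts above the share of all genes are no independent support. With the adjusted p alone 40 were higher and 16 lower (5.68% and 4.74% of all genes), and with both thresholds 10 were higher and 0 lower (1.40% and 0.666% of all genes), with a median log2 fold change of 0.10 where that of all genes was -0.01. Without the 10 genes above, 37 were higher, 16 lower and 8 higher at both thresholds, of 174. All of those called by the adjusted p were among the 160 pathway genes that averaged 10 or more normalized counts, a class in which 9.65% of genes were higher and 8.09% lower. The counts of each list that follow are by the adjusted p and are to be read against these shares. In the spironolactone and vehicle comparison limma called 0 of 181.

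The list of adipogenic regulators held 6 higher and 1 lower of 25 and included the strongest response of the lists. Zbtb16, a zinc finger repressor, went from 7.15 ± 3.84 to 760 ± 107 normalized counts (SD, n = 4, log2 fold change 6.67, adjusted p = 1.06e-10). Klf15, a Krüppel-like factor that promotes Pparg expression, went from 217 to 1012 (2.21, adjusted p = 4.71e-07) and Cebpd, the partner of Cebpb in the early wave, from 1165 to 3205 (1.46, adjusted p = 3.95e-08). Ebf1, which acts upstream of Pparg, was higher by 0.65 (adjusted p = 2.60e-06). Among 20 genes that restrain differentiation 5 were higher and 4 lower, and Wnt5a, a WNT ligand, had the smallest p, with a log2 fold change of -0.62 (adjusted p = 4.70e-06).

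In fatty acid uptake and carriage 4 of 25 genes were higher and 2 lower, the latter including Slc27a3, an acyl-CoA synthetase (log2 fold change -0.53, adjusted p = 3.10e-04). Triglyceride synthesis held 3 higher and 2 lower of 23, with Lpin3, a phosphatidate phosphatase, at 1.25 (717 against 300 normalized counts, adjusted p = 3.74e-08) and Agpat4, an acyltransferase, at 0.57 (adjusted p = 5.16e-06). Genes of the droplet coat held 6 higher and 0 lower of 15. Plin1, the perilipin of mature fat cells, had 97.7 ± 13.1 normalized counts against 30.2 ± 14.2 (1.78, adjusted p = 6.19e-04), and Cavin1, a caveolar protein needed for fat storage, was higher by 0.53 (adjusted p = 5.36e-06).

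Lipolysis held 5 higher and 2 lower of 17, and Pnpla2, the lipase that starts triglyceride breakdown, was higher by 0.55 (adjusted p = 4.05e-04) where Lipe, which acts after it, was not called. Of 19 genes of mature adipocytes and adipokines 2 were higher, Plin1 and Cdh13, a receptor for adiponectin (3758 against 1344 normalized counts, 1.48, adjusted p = 7.15e-11), and 1 was lower, Apln, the hormone apelin (-0.60, adjusted p = 0.021, lost on leaving out any of the 8 libraries, adjusted p 0.0541 to 0.172). Lipogenesis held 2 higher and 2 lower of 20, with Me1, which supplies NADPH, at -0.46 (adjusted p = 2.14e-04). The counts of lipogenesis, of triglyceride synthesis and of mature adipocytes and adipokines were near the share of all genes averaging 10 or more. Fatty acid oxidation held 8 higher and 2 lower of 25. There Pdk4, which turns fuel use from glucose to fat, went from 284 to 1879 (2.73, adjusted p = 6.08e-13), and Acaa2, a thiolase, was higher by 0.46 (adjusted p = 0.00123).

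**Figure D3:**
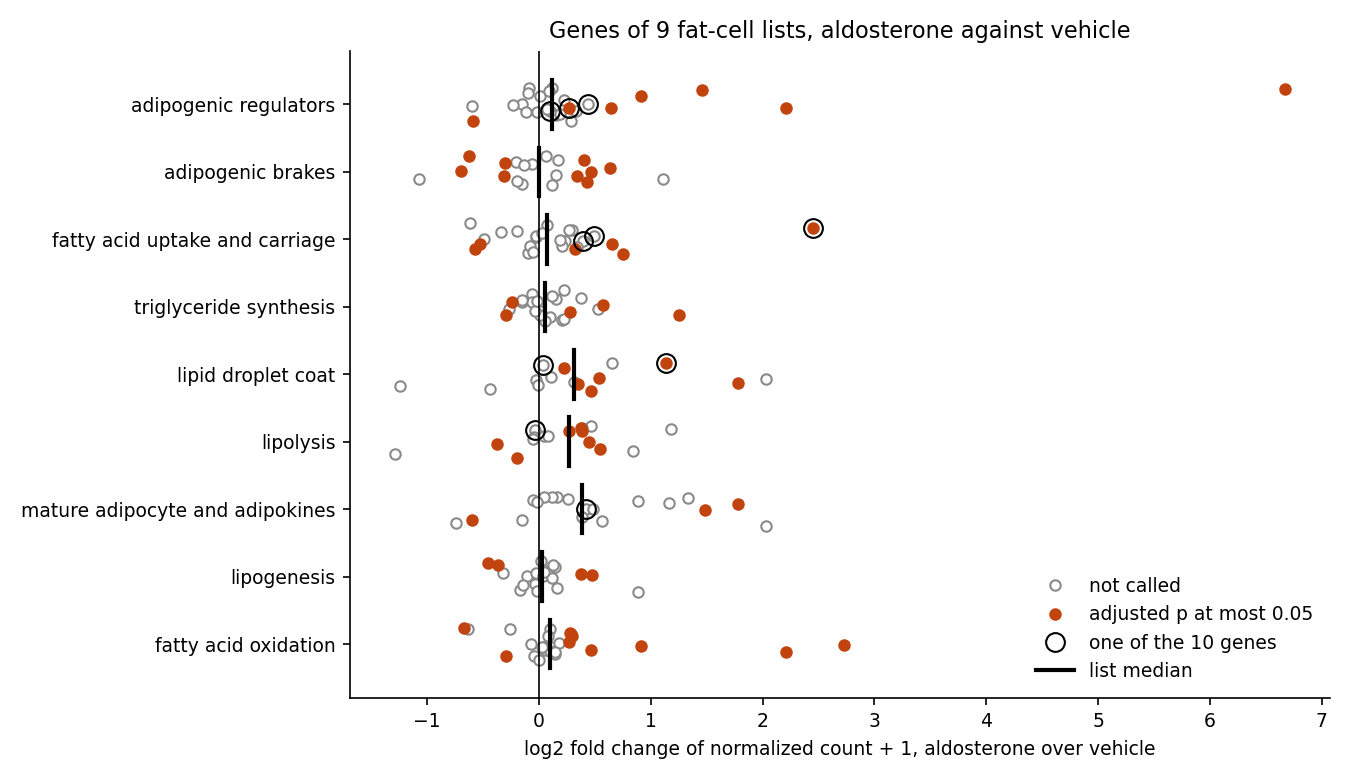
Log2 fold change with aldosterone against vehicle (x axis) of each gene in the 9 lists (rows, points spread vertically for sight), filled where the adjusted p was at most 0.05, with a bar at the list median and a ring round each of the 10 genes. Zbtb16 lies farthest right at 6.67, and the droplet coat list has no filled point left of 0.

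Fabp4 and Plin4 followed each other over the 12 libraries (Pearson r = 0.986 of log2(CPM + 1), CPM being reads scaled to the library total), a description in which the libraries share their treatment groups. Of 13500 genes with a mean of at least 1 CPM, those most like Fabp4 were Glul, glutamine synthetase (r = 0.996), Aldh1a1, a retinaldehyde dehydrogenase (0.995), and Tmem106b (0.994). Those most like Plin4 were Celf2 (0.992), Prune2 (0.990) and Sphk1, sphingosine kinase (0.988). All 6 were themselves higher with aldosterone, from 0.63 for Celf2 to 3.13 for Glul on the log2 scale. Since they were picked for likeness to genes that aldosterone set apart, this direction followed from the choice and adds no support. Adipoq instead followed Cd36 (r = 0.868) and Lpl (0.857), and its r with Fabp4 was 0.362.

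The sample number separated these genes in a different pattern from the treatment. Over all 12 libraries, with treatment in the model, 4 of the 10 genes were higher in sample number 2 and 3 lower (limma, adjusted p alone, background 5.11% and 5.61% of 28995 genes). If the sample number stands for the mouse, comparisons by sample number set a single mouse against another. Their p-values then measure the spread between plates, not that between mice. Adipoq ranged from 0.385 to 0.860 FPKM with a median of 0.577 in the 6 libraries of sample number 1, and from 0.945 to 2.68 with a median of 1.62 in those of sample number 2. The groups did not overlap, and the log2 difference was 1.36 (SE 0.23, adjusted p = 1.47e-04). Cebpa went the other way without overlap, with 17.4 to 25.1 FPKM (median 22.1) in sample number 1 and 12.7 to 16.3 (median 15.3) in sample number 2 (log2 difference -0.55, SE 0.050, adjusted p = 6.43e-09).

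Cd36 (0.85, adjusted p = 0.015), Lipe (0.41, adjusted p = 0.00803) and Lpl (0.40, adjusted p = 1.14e-05) were also higher in sample number 2, and Pparg (-0.30, adjusted p = 0.0232) and Plin2 (-0.15, adjusted p = 0.0184) were lower, each with some overlap. Fabp4 (0.14, adjusted p = 0.322), Plin4 (0.05, adjusted p = 0.676) and Cebpb (0.02, adjusted p = 0.895), the 3 genes called with aldosterone against vehicle, were not called by sample number. Without the aldosterone libraries 1 gene remained higher, Lpl, and 2 were lower, Cebpa and Plin2, in a fit with 8 libraries. The shares of all genes given above are for the fit with 12 libraries and do not apply to these counts. Of 8 markers of mature adipocytes, 4 were higher in sample number 2 and 0 lower, namely Adipoq, Cfd, Cidec and Plin1. Other marker lists shifted too. Of 6 mural markers 0 were higher and 5 lower, of 8 muscle markers 0 and 3, and of 10 fibroblast markers 5 and 2. Endothelial markers had 0 higher and 1 lower, and macrophage and Schwann cell markers 0 and 0. The summed level of the adipocyte list was 1.96 to 3.85 FPKM in sample number 1 and 3.78 to 9.11 in sample number 2. By treatment the same sum was 2.26 to 4.98 FPKM with vehicle, 3.60 to 9.11 with aldosterone and 1.96 to 4.60 with spironolactone, and its part in the results was not tested. Endothelial markers summed to 4.17 to 4.57 FPKM over 8 genes with vehicle and 5.39 to 5.83 with aldosterone. Most of this sum was Tek, with a mean of 3.996 FPKM with vehicle and 4.575 with aldosterone. Mean Kdr went from 0.211 to 0.761 FPKM. Pecam1 went down from 0.0446 to 0.0189, as did Cldn5, with at most 1 read in any library, from 0.00813 to 0.00584. The other endothelial markers were higher with aldosterone, at means of at most 0.149 FPKM. Among them Gpihbp1, which holds Lpl on capillary walls, had 0 reads in all vehicle libraries. The part of endothelial markers in the results was not tested either.

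The aldosterone difference itself was set side by side in each sample number. In sample numbers 1 and 2 it was 0.27 and 0.27 for Cebpb and 0.37 and 0.42 for Lpl on the log2 scale, while it was 0.11 and 0.73 for Adipoq and 0.79 and 0.19 for Cd36. Limma's interaction term called 0 of the 10 genes, with 1 of them, Pparg, at an unadjusted p under 0.05, and 0.0146% of all genes, 4 in number.

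**Figure D4:**
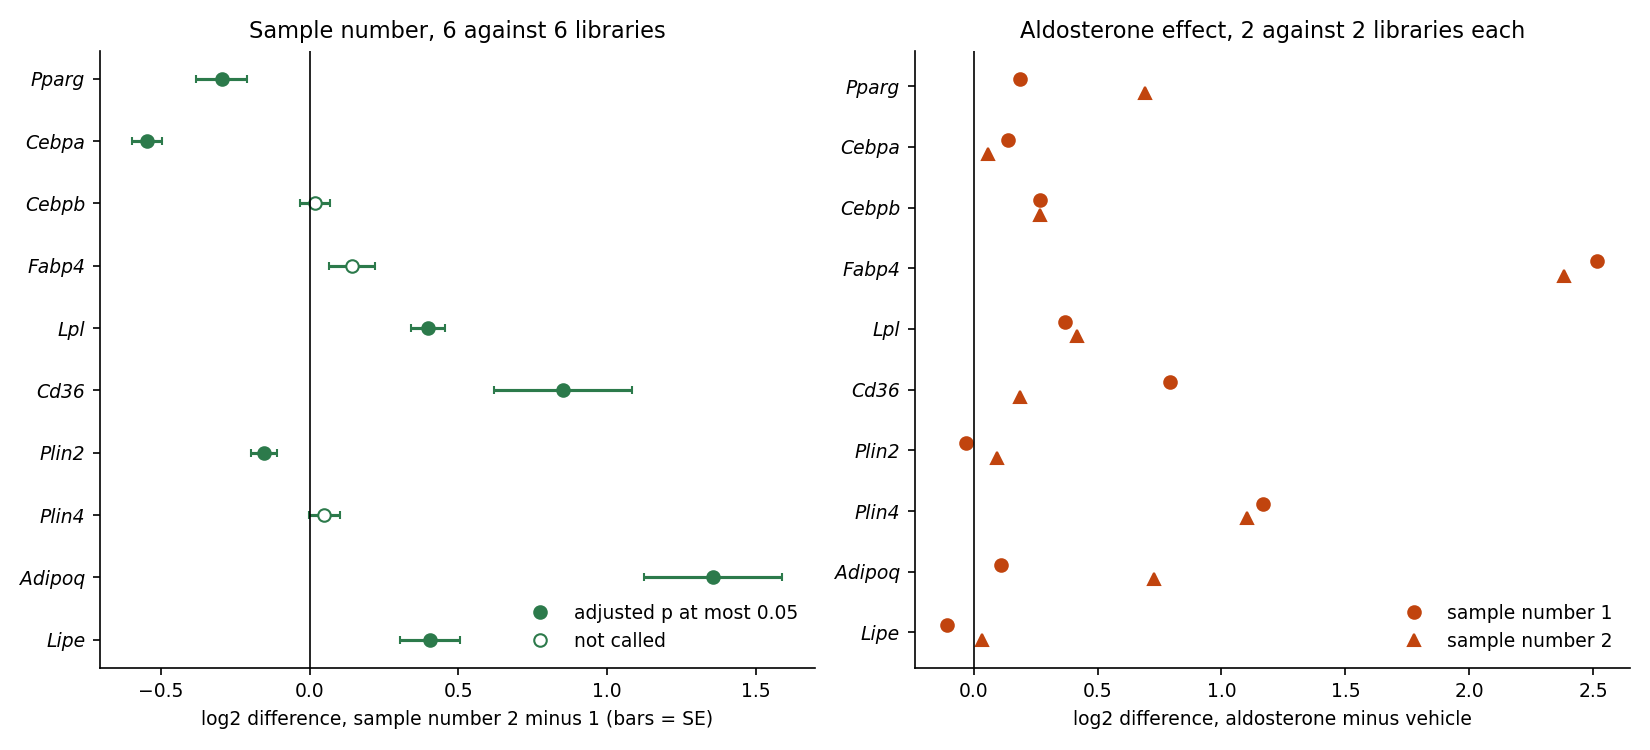
Left, log2 difference of each gene between the 6 libraries of sample number 2 and the 6 of sample number 1, adjusted for treatment, with the SE as bars and filled points for an adjusted p of at most 0.05. The replicates there are libraries, not mice. Right, log2 difference between aldosterone and vehicle within sample number 1 (circles) and 2 (triangles), where Fabp4 and Plin4 nearly coincide and Pparg and Adipoq are higher in sample number 2.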

How the data were processed

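Per the submitters' processing notes, reads were aligned with HISAT2 (version 2.0.5) and counted with featureCounts (version 1.5.0-p3) on mm39, while the study's methods name an older build. Only 141 of 22873 gene starts equal those of GRCm38.p6 and 8 of 20645 those of NCBIM37, so positions are given as deposited. The authors deposited a signal table for each pair of treatments, gene counts divided by a size factor per library, beside their own DESeq2 fold changes and p-values, which were not used. The value of 1 read in each column gave back whole reads (100.0% of values within 0.01 read), from 1 table only for 2 libraries.

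Each table was tested over all genes with limma (version 3.58.1, R 4.3.3, trend, two-sided, Benjamini-Hochberg) on log2(value + 1), treatment only, with the study's thresholds. Alternatives were a pseudocount of 0.5, a mean of at least 10, DESeq2 (version 1.42.0), edgeR (version 4.0.16), TMM, the sample number as a block, single sample numbers and leaving out each library. Libraries of the same sample number in different treatments deviated together (24 of 24 pairs, r 0.132 to 0.284, mean 0.218, 15310 genes), so the sample number, which comes from the labels, was taken to pair them. Tests were checked on simulated data. The comparison of sample numbers was added after seeing the data. The members and lists were chosen with earlier results of these data known. Named beside the 10 genes are pathway genes called at both thresholds with a mean of at least 10, the smallest adjusted p left in each list, and the 3 genes most like each called member. A result that this rule names is not reported here. Others (Peds1, 4732471J01Rik, Lep, Gpihbp1, Cfd, Cidec, Tek, Kdr, Pecam1 and Cldn5) were named after their values were seen.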

Additional observations from a re-analysis of the deposited data

Results flagged for a closer look

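In spironolactone-treated fibroblasts, Plin4 was lowest in the library of sample number 1, replicate 2, at 3.45 FPKM, while the nearest of the other 3 was at 4.38. This gap took up 0.913 of the range of the group, more than Dixon's test allows for 4 samples. It was the only one of 30 groups (10 genes in 3 treatments) in which a library stood so far from the rest, and chance alone would mark about 1 in 20 groups. The Plin4 difference between aldosterone and spironolactone was called at both thresholds without this library too.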

How the results depend on the processing

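Fabp4 and Plin4 stayed past both thresholds in both comparisons with aldosterone under every alternative except the libraries of sample number 1 alone. There 0 of the 10 genes passed with aldosterone against vehicle, at both thresholds or by adjusted p alone, in a fit with 4 libraries. Of the pathway genes 0 were then called at both thresholds, 0 higher and 0 lower by adjusted p alone, and against spironolactone 0 of the 10 genes, with 2 pathway genes called at both thresholds, 2 higher and 0 lower by adjusted p alone. With sample number 2 alone, by adjusted p alone, 13 pathway genes were higher and 3 lower against vehicle, and 13 higher and 4 lower against spironolactone, where 2 of the 10 genes were higher in place of 4. Leaving out each library in turn gave, by adjusted p alone, 26 to 32 pathway genes higher (40 with all) and 6 to 10 lower (16 with all) against vehicle, the 26 without the vehicle library of sample number 1, replicate 2. Against spironolactone it gave 23 to 28 higher (37 with all) and 8 to 12 lower (15 with all), with 23 higher without the aldosterone library of sample number 2, replicate 1, or the spironolactone library of sample number 1, replicate 1, 8 lower without the latter and 9 lower without that of sample number 2, replicate 1. These fits hold fewer libraries.

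Blocking on the sample number (a replicate block), 5 of the 10 genes were higher against vehicle by adjusted p alone (3 without), and in the spironolactone and vehicle comparison 1 of the 10 was lower, with 1 pathway gene higher and 1 lower (0 without). Beside these and the values given for Cebpa and Cebpb against spironolactone, the block changed no other call of the 10 genes. It raised the counts of all genes by adjusted p alone to 2371 higher and 2192 lower against vehicle and to 2095 and 1879 against spironolactone, and called 2 genes lower at both thresholds with spironolactone against vehicle. Of all genes, sample number 1 alone gave 15 higher and 2 lower against vehicle and 4 and 0 against spironolactone by either rule, and sample number 2 alone 549 and 339, and 555 and 388, by adjusted p alone, with 231 and 209 higher at both thresholds. Leaving out each library gave 993 to 1262 higher and 773 to 984 lower against vehicle, and 897 to 1037 and 665 to 828 against spironolactone, by adjusted p alone, and 116 to 162 lower against vehicle at both thresholds. Without the aldosterone libraries, 1 of the 10 genes was higher in sample number 2 in place of 4, in a fit for which no share of all genes is given. No called difference changed direction. Counts near Cd36, with 11.7 to 49.2 normalized counts in a library, limit the size of change that 4 libraries could show.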

Other observations

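Against spironolactone, 37 of 182 pathway genes were higher with aldosterone and 15 lower by limma's adjusted p alone (4.93% and 3.96% of all genes, 8.39% and 6.78% of those averaging 10 or more normalized counts), and 11 were higher at both thresholds (1.38% of all genes). This comparison shares the aldosterone libraries with that against vehicle. Zbtb16 had a log2 fold change of 6.92 (SE 0.26, adjusted p = 1.06e-11), Pdk4 of 2.77 (SE 0.068, adjusted p = 1.83e-14), Klf15 of 1.80 (SE 0.16, adjusted p = 7.14e-07) and Cdh13 of 1.5 (SE 0.057, adjusted p = 1.06e-11). Cebpd, the early C/EBP factor, was at 1.21 (SE 0.12, adjusted p = 1.25e-06) and Plin1, the perilipin of mature fat cells, at 1.47 (SE 0.36, adjusted p = 0.0134). With spironolactone against vehicle, Klf15 had a log2 difference of 0.41 (SE 0.17, adjusted p = 0.934) and Cebpd of 0.25 (SE 0.11, adjusted p = 0.934).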
